A study of Mus musculus with 4 samples.

Results

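The 7 genes described here, H2-Aa, H2-Ab1, H2-Eb1, H2-DMa, H2-DMb1, Cd74 and Ciita, encode the core of the mouse MHC class II route of antigen presentation. They were taken by name from a list and were not ranked by their measured values, but the list was chosen with earlier results of these data known. All 7 were found in each of the 4 count tables, among 15610 gene symbols in intestinal singlets, 15615 in intestinal multiplets, 19647 in lung singlets and 20147 in lung multiplets. They were followed through 10 cell classes of the small intestine, 13 of the lung and the multiplets of both tissues. The samples were untreated C57BL/6J mouse small intestinal epithelium and lung, each dissociated mechanically and with enzymes and each giving 1 droplet library of singlets (droplets with a single cell) and 1 of multiplets (droplets whose barcode holds several cells). The labels give no age, sex or number of animals and name no separate animals. Each group is a single library without a replicate, so no test was run, and every interval below covers counting error only. A difference was called higher or lower by size alone, past 1.5-fold.

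MHC class II molecules present peptides from endocytosed and lysosomal proteins to CD4+ T cells. An α and a β chain (H2-Aa with H2-Ab1 form I-A, H2-Eb1 is the β chain of I-E) assemble on the invariant chain Cd74, which fills the groove until lysosomal proteases cut it down, and the chaperone H2-DM (H2-DMa with H2-DMb1) then trades its last fragment for a peptide. Ciita, the master coactivator, is recruited to paired X and Y box elements in the promoters of these genes by the RFX and NF-Y factors and is induced by interferon gamma. B cells, dendritic cells and macrophages are the classic presenting cells, and type II pneumocytes and intestinal crypt cells are known epithelial sites of expression. In mice of the b haplotype such as C57BL/6 the α chain of I-E is not made because its gene lacks a working promoter, so H2-Eb1 RNA has no partner.

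On the mouse build GRCm38 the 5 H2 members lie within 197134 bases of chromosome 17. H2-DMa spans chr17:34119541-34139101, H2-DMb1 chr17:34153072-34160230, H2-Ab1 chr17:34257689-34269419, H2-Aa chr17:34282744-34287823 and H2-Eb1 chr17:34305867-34316674, with H2-Aa on the minus strand and the others on the plus strand. Cd74 lies on chromosome 18 (60803848 to 60812652) and Ciita on chromosome 16 (10480059 to 10528418), both on the plus strand. Exons of Ciita overlap exons of Dexi, and exons of H2-DMa overlap exons of Brd2, each on the opposite strand. No label or header read here says whether counting used strand, so reads of these pairs might not be separable. H2-DMb1 has a near-identical neighbour, H2-DMb2 (chr17:34143307-34151555), and the split of reads between them is uncertain.

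Promoter sequences from RefSeq (GRCm38.p6) covered 4 of the 7 members, and H2-Ab1, Cd74 and Ciita had no entry. The 250 bases before each start were searched on both strands for the Y box core GATTGG and for a degenerate X box core of 10 letters, whose matches are the first capitals of the windows of H2-Eb1 and H2-Eb2. The Y core was in 14.6% of all 32851 promoters, the X core in 2.89% and both in 0.387%. The windows below show where they fall in the genes whose levels are described next, with the cores in capitals, together with H2-Eb2, a β chain gene outside the list.

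H2-Aa, chr17:34287842-34287917, minus strand, 94 to 19 bases before the start: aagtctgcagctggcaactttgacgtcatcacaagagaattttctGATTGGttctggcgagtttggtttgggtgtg

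H2-Eb1, chr17:34305762-34305837, plus strand, 105 to 30 bases before the start: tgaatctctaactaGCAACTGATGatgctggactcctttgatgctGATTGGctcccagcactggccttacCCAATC

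H2-Eb2, chr17:34325529-34325604, plus strand, 146 to 71 bases before the start: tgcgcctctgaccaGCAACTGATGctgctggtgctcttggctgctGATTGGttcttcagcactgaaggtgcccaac

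H2-Eb1 and H2-Eb2 hold the same 10 letters of the X core 21 bases before a Y core, and in H2-DMb1 the X core reads GTAACTGATG with 22 bases to the Y core. H2-Aa matched the Y core alone, 49 bases before its start. One of the 2 H2-DMa promoters held a Y core 199 bases before the start and the other held neither. An X core followed on the same strand by a Y core after 15 to 25 bases, a spacing chosen after these windows had been read, was found in 4 of the 32851 promoters: H2-DMb1, H2-Eb1, H2-Eb2 and BC051142, all on chromosome 17. A match of letters is a description and does not show that a factor binds there. The search misses boxes that depart from these letters, so a promoter without a match, as for the X core in H2-Aa, may still hold one.

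The libraries held 5279 intestinal singlets, 3671 intestinal multiplets, 6084 lung singlets and 4729 lung multiplets, with 47764845 to 66277622 UMIs (unique molecular identifiers, each counting 1 transcript end) per library. Median depth was 8759 UMIs in intestinal singlets, 12603 in intestinal multiplets, 7896 in lung singlets and 11934 in lung multiplets. Any 2 libraries shared 2 to 15 barcodes. Cell classes are the authors' labels. Their defining markers were present in the classes named here (B cell markers at 13459 CPM, counts per 1000000 UMIs, in the lung B-cell class, type II pneumocyte markers at 255737 in the Pneumocyte Type-II class), but the lung class labelled Macrophage also carried monocyte markers at 2508, neutrophil markers at 3229 and dendritic cell markers at 413 CPM. The Pneumocyte Type-I class held 6 barcodes and the Mesothelial class 10, and their values rest on 5 class II UMIs each.

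In the small intestine class II RNA was most abundant in the stem cell class and lower in every other class. Summed over the 7 genes, Stem singlets held 212 CPM (95% Poisson interval 197 to 228, 760 UMIs in 587 barcodes). Transit amplifying singlets, the dividing progeny of stem cells, held 87.6 (82.2 to 93.3) and early progenitors 57.2 (52.5 to 62.2). Goblet cells, which secrete mucus, followed at 48.9 (44.4 to 53.6), then late-1 progenitors at 44.1 (39.2 to 49.5), absorptive enterocytes at 39.9 (31.7 to 49.7), late-2 progenitors at 35.5 (27.0 to 45.8) and hormone-secreting enteroendocrine cells at 24.5 (16.0 to 35.9). Tuft cells at 7.08 (2.30 to 16.5) and Paneth cells at 3.03 (1.22 to 6.25), which secrete defensins, were lowest.

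Neighbours from the Stem to the Transit amplifying and early progenitor classes were separated by their intervals, whereas from early progenitors down to Paneth cells the interval of each class overlapped that of the next. The late-2 and Enterocyte values rested on few barcodes: the 10 barcodes with the most class II UMIs held 61% and 50% of them, and without those barcodes the levels were 14.6 and 21.1 CPM. Enteroendocrine cells stood at 5.11 CPM without theirs, and the Paneth and Tuft classes held no class II UMI outside 10 barcodes. Without its own 10 highest barcodes the Stem class stayed at 173 CPM and Transit amplifying at 75.02. The immune marker list was near 0 in the Stem class (4 UMIs in all, with Ptprc, Coro1a and Laptm5 at 0), the B cell list had 15 UMIs in 5 barcodes, and without the 2 Stem barcodes that held such a UMI the level was 205 CPM.

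**Figure D1:**
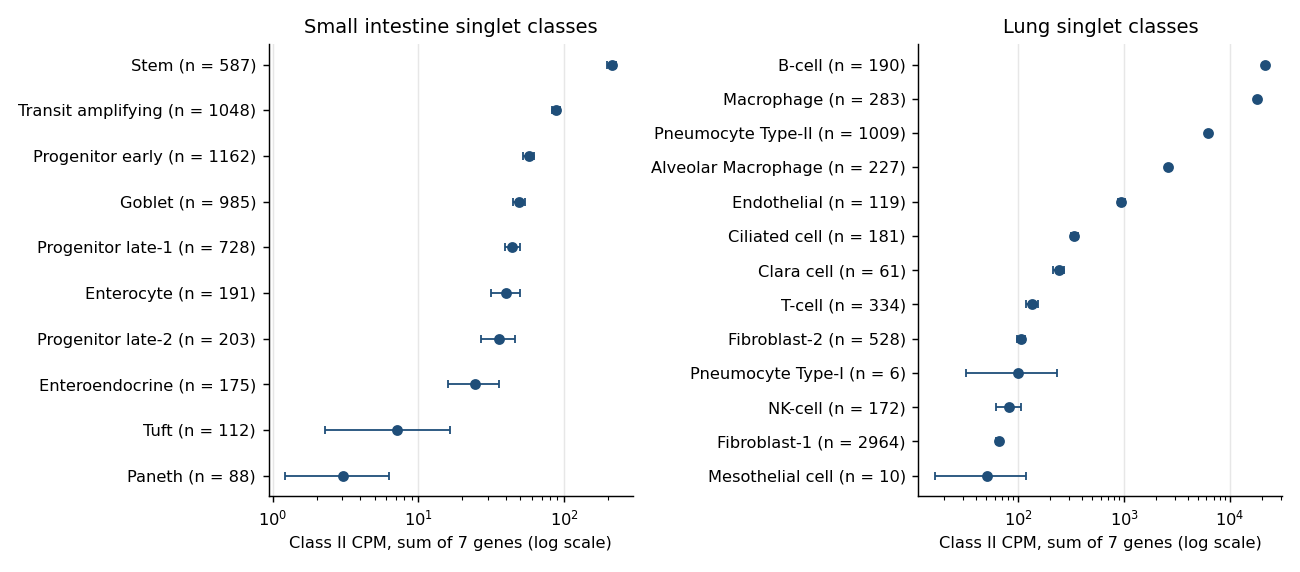
Summed CPM of the 7 class II genes (log scale) in each singlet class, with n the number of barcodes and bars the 95% Poisson interval. Stem leads the small intestine at 212, and the lung spans from 50.4 in Mesothelial cells to 21502 in B cells.

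The signal in each intestinal cell was sparse. When each barcode was thinned to 1500 UMIs, a class II UMI was seen in 19.8% of Stem barcodes (exact Clopper-Pearson interval 16.6 to 23.2%), 10.5% of Transit amplifying, 6.37% of early progenitor and 5.38% of Goblet barcodes. In Paneth barcodes the share was 1.14%, and in Tuft barcodes it was 0 of 112, which allows up to 2.68%. These last values set the level seen in classes with little class II RNA; median depth before thinning was 6199 UMIs in Stem, 25594.5 in Paneth and 6107 in Tuft barcodes. At 1500 UMIs 3 of 587 Stem barcodes reached 5 class II UMIs, and the highest unthinned count in a Stem barcode was 26. Over all intestinal singlets the share with any class II UMI was 7.71% thinned and 26.2% without thinning.

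The invariant chain accounted for most of the stem cell signal. Cd74 stood at 119 CPM in Stem (in 168 of 587 barcodes), 47.6 in Transit amplifying, 30.9 in early progenitors, 17.3 in late-1, 14.4 in late-2, 6.96 in Goblet and 4.99 in Enterocyte singlets, was at 0.866 in Paneth cells and had no UMI in Tuft cells, where 3 UMIs would have been 4.25 CPM. The level thus went down along the order from stem cell to enterocyte. Among the chains, H2-Eb1 stood at 28.5 CPM in Stem, 8.49 in Transit amplifying and 4.72 in early progenitors, and H2-Aa at 6.14, 2.62 and 0.524. H2-Aa, the α chain of I-A, was thus the scarcest of the 3 chain genes in these classes, with 74 UMIs in the whole singlet library against 793 for its partner H2-Ab1.

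H2-Ab1 did not follow that order. Its level was highest in Goblet cells at 35.8 CPM (329 UMIs in 247 of 985 barcodes), then 29.3 in Stem, 19.5 in Enterocyte and 14.3 in Transit amplifying singlets. In Goblet cells it made up 73.3% of all class II UMIs, against 13.8% in Stem and 16.3% in Transit amplifying. It was also the largest member in Enterocyte (48.8% of 80 UMIs, 37.4 to 60.2%), enteroendocrine (42.3% of 26) and Paneth singlets (57.1% of 7). A lead of H2-Ab1 was thus not particular to Goblet cells. The same Goblet barcodes held 64 Cd74 UMIs, 22 of H2-Eb1, 12 of H2-DMa and 2 of H2-Aa. Of the 247 Goblet barcodes with H2-Ab1, 7.29% also had Cd74 (4.38 to 11.3%), against 3.52% of those without H2-Ab1. Of the 79 Stem barcodes with H2-Ab1, 45 also had Cd74 (45.3 to 68.1%), against 24.2% of those without.

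The Goblet H2-Ab1 UMIs were spread over many barcodes, with at most 12 class II UMIs in a barcode. The B cell list stood at 0.870 CPM in the Goblet class, with Cd79a and Igkc at 0, and Scrublet marked 4.26% of Goblet barcodes as doublets, without which the summed level was 49.4 CPM. Goblet against the other 9 classes was compared after these values had been seen: 1 of the 6 members counted (at least 50 UMIs in the pair) was past 1.5-fold higher, H2-Ab1 at 2.98-fold (2.58 to 3.43), where 13.3% of all genes counted were higher. Of the others, 4 were lower, where 31% of genes were: H2-Aa at 0.117, H2-Eb1 at 0.338, H2-DMa at 0.116 and Cd74 at 0.191. H2-DMb1 was within the limit at 1.21.

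H2-DMa, the α chain of the peptide exchanger, kept more even levels along the absorptive lineage than Cd74 did. It stood at 23.2 CPM in Stem, 11.0 in Transit amplifying, 11.0 in early progenitors, 11.7 in late-1, 13.8 in late-2 and 8.48 in Enterocyte singlets, and at 1.31 in Goblet cells. Its share of class II UMIs went from 10.9% in Stem to 39.0% in late-2 progenitors, whose values are of 23 H2-DMa UMIs among 59. H2-DMb1 had 85 UMIs in the library and was highest in Stem at 4.46 CPM. Ciita had 31 UMIs in the whole library (1.67 CPM in Stem, 2.00 in Enterocyte, 1.08 in Transit amplifying), too few to order the classes.

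**Figure D2:**
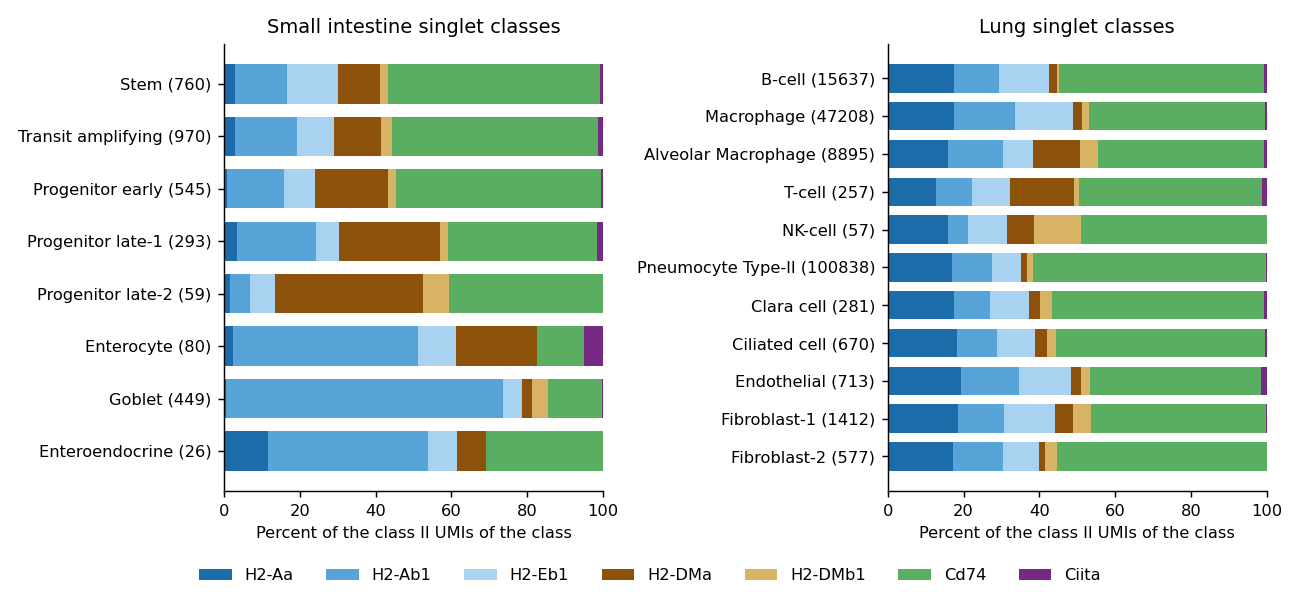
Share of each member among the class II UMIs of a singlet class, in percent, with the number of class II UMIs in brackets; classes under 20 such UMIs are left out. H2-Ab1 takes 73.3% in Goblet cells, and Cd74 takes 61.4% in type II pneumocytes.

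Stem cells against the other 9 classes, a contrast also chosen with the values known, had 6 of 6 counted members higher, where 19.9% of 11556 genes were higher and 19.3% lower. The largest was H2-Eb1 at 6.51-fold (5.07 to 8.32), then H2-Aa at 5.21, Cd74 at 5.02, H2-DMb1 at 2.86, H2-DMa at 2.83 and H2-Ab1 at 1.88; Ciita was not counted. Of the 7 class II regulators 2 were higher, Rfx5 (a DNA-binding RFX subunit) at 12.8 against 4.37 CPM and Nfya (an NF-Y subunit) at 21.2 against 12.5, and 1 was lower, Nfyc at 0.603-fold. The 6 counted genes of the interferon gamma route were all within the limit, with the receptor chain Ifngr1 at 144 against 146 CPM and the kinase Jak1 at 65.8 against 59.2. The class I route was highest elsewhere: its genes summed to 1332 CPM in Stem and 3472 in Enterocyte singlets, and H2-D1, a classical class I heavy chain, was at 0.616-fold in Stem.

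Genes alike in pattern were ranked without the members and without any other H2- gene, so no other MHC gene of that name could appear. The genes whose levels over the 10 intestinal classes were most like the summed class II level were Mtus1 (Pearson r = 0.981 on log2 of CPM plus 10), BC017158, Pctp, Pxylp1, Hes1, Met, Serinc5, Rbms2, Xpot and Plagl2 (r = 0.906). All 10 had their highest level in Stem, from 10.3 CPM for BC017158 to 134 for Hes1, a target of Notch signalling. The 10 points are classes of 1 library with unequal depth, so the r values are descriptive.

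In lung singlets the level of class II RNA was highest in B cells, and the largest share of class II UMIs in this library was in type II pneumocytes. B cells held 21502 CPM (21166 to 21841), Macrophage 17991 (17829 to 18154), type II pneumocytes, the surfactant-making cells of the alveolus, 6223 (6185 to 6262) and Alveolar Macrophage 2607 (2553 to 2662). Endothelial cells followed at 938 (870 to 1009), Ciliated at 339 (314 to 366), Clara (secretory airway) cells at 240 (213 to 270), T cells at 136 (120 to 153), Fibroblast-2 at 106 (97.4 to 115), Pneumocyte Type-I at 99.0 (32.1 to 231), NK cells at 81.6 (61.8 to 106), Fibroblast-1 at 65.4 (62.1 to 69.0) and Mesothelial cells at 50.4 (16.4 to 118). The order of the first pair turned in the barcodes at or under each class's median for type II pneumocyte transcripts, where B cells over Macrophage was 0.976. The intervals of neighbours were apart from B cells down to Fibroblast-2, and overlapped below. The order from Ciliated to Fibroblast-2 turned without the 10 highest barcodes of each class (T cells 74.5, Ciliated 57.6, Fibroblast-2 46.9 and Clara 31.3 CPM). Those 10 are unequal parts of classes that hold 61 (Clara) to 528 (Fibroblast-2) barcodes. By number of molecules, type II pneumocytes held 57.1% of all class II UMIs of the singlet library, Macrophage 26.7% and B cells 8.86%. These shares depend on the barcodes and depth of each class in this library and are not shares of the lung. Type II pneumocytes had 1009 barcodes with a median of 16009 UMIs, and B cells 190 with a median of 3312.5.

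Every B cell barcode held class II RNA. Per barcode they held from 46.2 to 392 class II UMIs per 10000, with a median of 234 and the 10th and 90th percentiles at 134 and 314. Cd74 was found in 190 of 190 barcodes (11645 CPM), H2-Aa in 189 (3732 CPM), H2-Ab1 in 189 (2604 CPM) and H2-Eb1 in 189 (2795 CPM). Ciita was highest in this class, at 149 CPM in 77 barcodes. B cells also led in the other class II genes, at 443 CPM for H2-Ob and 239 for H2-Oa, the chains of the DM inhibitor H2-O, 430 for H2-DMb2 and 79.8 for H2-Eb2; the next highest value of any of them in another class was 34.7 CPM, for H2-DMb2 in Macrophage.

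The Macrophage class was split. Its median was 13.4 class II UMIs per 10000 with the 25th percentile at 3.12 and the 75th at 214, 32 of 283 barcodes had none, and the highest barcode held 1137 per 10000. H2-Aa was found in 143 barcodes, H2-Ab1 in 133 and Cd74 in 218. The chains went together: 89.5% of barcodes with H2-Ab1 also had H2-Aa, against 16.0% of those without. Class II stood at 32532 CPM in the 33 barcodes with at least 2 UMIs of the dendritic cell list at the thinned depth, 10199 in the 206 with none and 5204 in the 41 with at least 2 neutrophil UMIs.

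Alveolar macrophages, which clear surfactant and inhaled particles, were lower and differed in which members they held. All 227 barcodes had a class II UMI, but the median was 7.43 per 10000 and 10 barcodes held 43.9% of the UMIs; without those 10 the level was 1559 CPM. H2-DMa was in 220 of 227 barcodes and Cd74 in 145, H2-Ab1 in 124 and H2-Aa in 106. H2-DMa stood at 320 CPM and H2-Aa at 415, whereas in B cells they stood at 458 and 3732. H2-DMa and H2-DMb1 made up 12.3% and 4.89% of the class II UMIs of alveolar macrophages, 2.34% and 1.84% in Macrophage and 2.13% and 0.550% in B cells. The H2-DMb1 shares leave out H2-DMb2, which is not a member and held 313 UMIs in B cells against 86 of H2-DMb1.

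Against the Macrophage class, in a contrast chosen after the values were seen, 6 of 7 members were lower in alveolar macrophages, where 18.6% of 8671 genes were lower and 25.5% higher. H2-Eb1 was at 0.0763-fold, H2-Aa and H2-Ab1 at 0.131, Cd74 at 0.137, Ciita at 0.187 and H2-DMb1 at 0.385, while H2-DMa was within the limit at 0.761 (0.699 to 0.828). Type II pneumocyte markers stood at 6258 CPM in the Alveolar Macrophage class; the barcodes at or under the class median for them, at 792 CPM, held 2748 CPM of class II RNA and H2-DMa in 111 of 114 barcodes, above the 2443 CPM of the barcodes over that median.

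**Figure D3:**
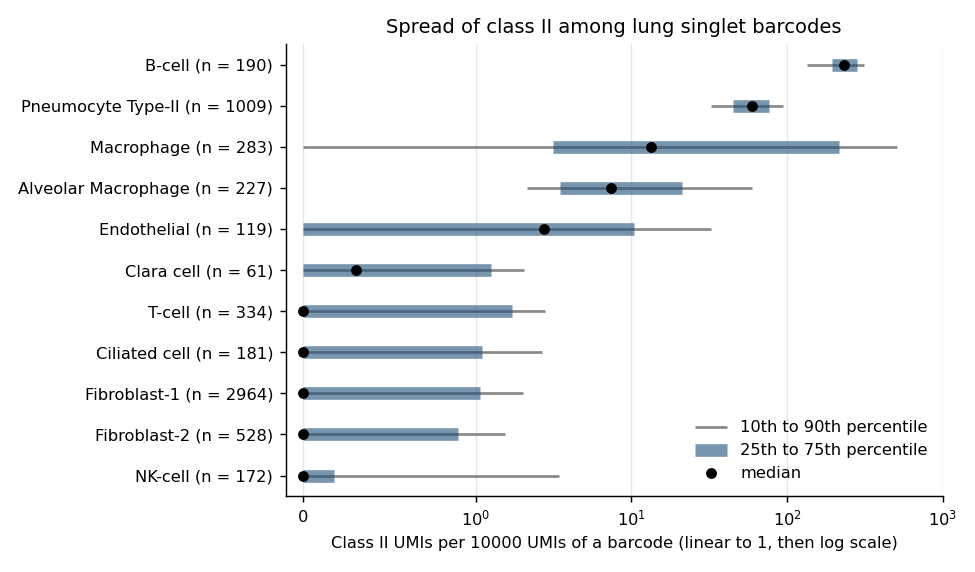
Class II UMIs per 10000 UMIs of a barcode in lung singlet classes with at least 20 barcodes (linear to 1, then log scale); points are medians, thick bars the 25th to 75th and thin bars the 10th to 90th percentile. B cells and type II pneumocytes are narrow around 234 and 59.9, and Macrophage runs from 0 to 508 between its 10th and 90th percentiles.

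Nearly every type II pneumocyte held RNA of the chains. Cd74 was found in 1009 of 1009 barcodes, H2-Aa in 1003, H2-Ab1 in 992 and H2-Eb1 in 987, and the summed level ran from 32.5 to 93.8 UMIs per 10000 between the 10th and 90th percentiles with a median of 59.9. The 10 highest barcodes held 3.10% of the UMIs. Cd74 stood at 3819 CPM, H2-Aa at 1057, H2-Ab1 at 647, H2-Eb1 at 485, H2-DMb1 at 103, H2-DMa at 89.98 and Ciita at 21.4 (in 268 barcodes). The invariant chain took 61.4% of the class II UMIs here, against 54.2% in B cells and 46.5% in Macrophage, and the order of the chains (H2-Aa, then H2-Ab1, then H2-Eb1) was that of the Macrophage class. Immune markers were at 70.7 CPM in the class, the macrophage list at 3.64 and the dendritic list at 4.81, and without every barcode that held an immune marker UMI the class II level was 6216 CPM.

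Against B cells (a contrast chosen with the values known) type II pneumocytes had 6 of 7 members lower, where 38.7% of 10418 genes were lower and 29.9% higher: Cd74 at 0.328-fold, H2-Aa at 0.283, H2-Ab1 at 0.249, H2-DMa at 0.197, H2-Eb1 at 0.174 and Ciita at 0.144. H2-DMb1 was within the limit at 0.874 (0.704 to 1.10), a value that leaves out reads counted to its neighbour H2-DMb2. Most counted genes of the other lists were lower too. These were 4 of 4 other class II genes, 2 of 2 costimulation genes, 9 of 9 class I genes, 6 of 6 interferon gamma route genes and 5 of 7 regulators. H2-Oa, H2-Ob, H2-DMb2 and H2-Eb2 were at 0.00181, 0.00265, 0.00674 and 0.0178-fold, the costimulatory ligand Cd86 at 0.617 against 160 CPM, Cd40 at 0.926 against 61.9 and cathepsin S (Ctss), the protease that trims the invariant chain, at 6.17 against 424 CPM. Of the 8 counted peptide supply genes 4 were lower, among them Ifi30, a lysosomal thiol reductase, at 138 against 326 CPM, and 2 were higher, the protease Ctsb at 1.62-fold and the ligase March8 at 3.02-fold.

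Against the Clara and Ciliated classes together, the airway epithelium, all 7 members were higher in type II pneumocytes, where 17.4% of 11189 genes were higher and 36.6% lower. The ratios lay between 9.76 for H2-DMa and 22.9 for Cd74. They depend on a few airway barcodes, since without the 10 highest of each class Clara and Ciliated cells stood at 31.3 and 57.6 CPM in place of 240 and 339. All 7 regulators were within the limit (Rfx5 at 8.82 against 8.90 CPM). None of the 6 interferon gamma route genes was higher, and the receptor chain Ifngr1 stood at 0.409-fold. Of the class I genes 4 of 9 were higher. In type II pneumocytes the class I route summed to 1421 CPM, under the class II sum, while in T cells it summed to 5920 with class II at 136; B2m, the class I light chain, stood at 166 CPM in type II pneumocytes and 1648 in T cells.

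The low classes need their background. At 1500 UMIs a class II UMI was seen in 8.57% of Fibroblast-1 barcodes, 11.0% of NK (6.78 to 16.7%), 11.5% of Clara, 13.3% of Ciliated and 13.5% of T-cell barcodes, with median depths of 6562, 3459, 16654, 10193 and 5039.5 UMIs. NK cells and fibroblasts were taken as classes that should lack class II RNA at rest. The shares in Clara (4.74 to 22.2%), Ciliated (8.68 to 19.1%) and T cells (up to 17.6%) overlapped the NK interval, and the T-cell interval lay above the Fibroblast-1 interval (7.59 to 9.64%). Type II pneumocyte transcripts were present in every lung class, at 1431 CPM in Fibroblast-1 (0.559% of the type II level, beside a class II level of 1.05% of it). In Clara cells those transcripts were at 4.22% and class II at 3.86% of the type II level, in Ciliated cells at 1.29% and 5.45%, in T cells at 0.650% and 2.18% and in NK cells at 0.901% and 1.31%. The part of such transcripts in these levels was not tested. The Clara, Ciliated and Fibroblast-2 levels rested on few barcodes: without the 10 highest they were 31.3, 57.6 and 46.9 CPM. T cells without their 10 highest stood at 74.5 CPM and NK cells at 50.4. The classes cannot be ordered by these values, since 10 barcodes are a larger part of 61 Clara and 181 Ciliated than of 334 T-cell barcodes. Without Scrublet doublets Ciliated cells stood at 139 and Fibroblast-2 at 70.6 CPM.

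Endothelial cells stood above that background, with a class II UMI in 46.2% of thinned barcodes (37.0 to 55.6%). H2-Aa was in 45 of 119 barcodes, H2-Ab1 in 41, H2-Eb1 in 41 and Cd74 in 54. The level moved with type II pneumocyte transcripts: the 59 barcodes above the class median for them (36209 CPM) held 1717 CPM of class II RNA and the 60 at or under it (1075 CPM) held 443 CPM (384 to 508), still in 42 of the 60 barcodes. The part of those transcripts in the higher value was not tested. Of the 6 macrophage markers C1qa, C1qb, C1qc, Csf1r and Adgre1 had no UMI in the class and Mrc1 had 103. The immune list stood at 363 CPM, in 20 barcodes, and without barcodes that held an immune marker UMI the level was 974 CPM. Without its 10 highest barcodes the class stood at 455 CPM.

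With the members and all other H2- genes again left out, the genes most like the summed class II level over the 11 lung classes with at least 20 barcodes were Plekhf2 (r = 0.873), Cd83, E2f2, Tbc1d14, Napsa, Ptprj, Slc15a4, Ifi30, Snx30 and Rassf3 (r = 0.813). Cd83, known to stabilize class II at the surface of B and dendritic cells, was highest in B cells at 521 CPM. Napsa, the aspartic protease that processes surfactant proteins, was highest in type II pneumocytes at 2274 CPM, and Ifi30 in Macrophage at 657 CPM. These likenesses were weaker than in the intestine and are descriptive.

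In multiplets of the small intestine class II RNA was slightly less abundant than in singlets, and in multiplets of the lung it was higher. The intestinal sum was 66.9 CPM in singlets and 59.9 in multiplets, a ratio of 0.896 (0.852 to 0.942). By member the ratio was 1.48 for H2-Aa (1.10 to 2.01), 0.917 for H2-Ab1, 0.806 for H2-Eb1, 0.812 for H2-DMa, 0.766 for H2-DMb1 and 0.900 for Cd74. With every barcode weighted the same the sum stood at 0.989 and Cd74 turned to 1.01. None of the 6 counted members was past 1.5-fold either way, where 1.42% of 11674 genes were higher and 3.87% lower, and the median ratio over all these genes, 0.933, lay inside the interval of the sum. Ciita, with 31 and 39 UMIs, was not counted. A level in a library of mixed cells cannot tell apart fewer cells of a type and less RNA per cell.

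H2-Aa in intestinal multiplets sat with immune transcripts. The 93 multiplets with any UMI of the immune marker list (Ptprc, Cd52, Coro1a and others) held 64 of the 116 H2-Aa UMIs, at 49.7 CPM against 1.05 in the other 3578, and their summed class II level was 371 against 51.8 CPM at median depths of 12306 and 12609 UMIs. Among singlets 93 barcodes had an immune UMI, with class II at 115 against 66.2 CPM. With such barcodes left out of both libraries, the H2-Aa ratio was 0.787 and the ratio of the sum 0.782. The genes of the immune list went different ways in intestinal multiplets. Rac2 (214 singlet and 143 multiplet UMIs) stood at 0.630-fold and Ptprc at 0.660, but Cd52, Coro1a and Fcer1g at 9.90, 8.22 and 3.37. Of the 20 multiplets led in RNA by Tuft cells, the list was counted only in the first 10 by class II UMIs. That order is nearly arbitrary, since all 20 held 1 class II UMI together. Of the 10, 8 held 112 UMIs of the list. Which cells the immune UMIs came from was not tested. The B cell markers Cd79a and Igkc were at 4.31 and 3.70-fold in intestinal multiplets, on 64 and 153 UMIs, while Cd79b, the other counted gene of that list, was within the limit at 0.967.

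In the lung the sum was 3117 CPM in singlets and 7290 in multiplets, a ratio of 2.34 (2.33 to 2.35). H2-Eb1 went from 323 to 1007 CPM (3.12-fold), H2-Ab1 from 383 to 1103 (2.88), Ciita from 13.6 to 38.8 (2.85), H2-DMa from 73.4 to 205 (2.80), H2-Aa from 534 to 1326 (2.48), H2-DMb1 from 56.6 to 138 (2.44) and Cd74 from 1733 to 3472 (2.00). All 7 were past 1.5-fold higher, where 15.9% of 15098 genes were higher and 13.8% lower. The intervals put H2-Eb1 above every other member but Ciita and Cd74 below all of them; the β chain with no partner in this strain had the highest ratio and the invariant chain the lowest.

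**Figure D4:**
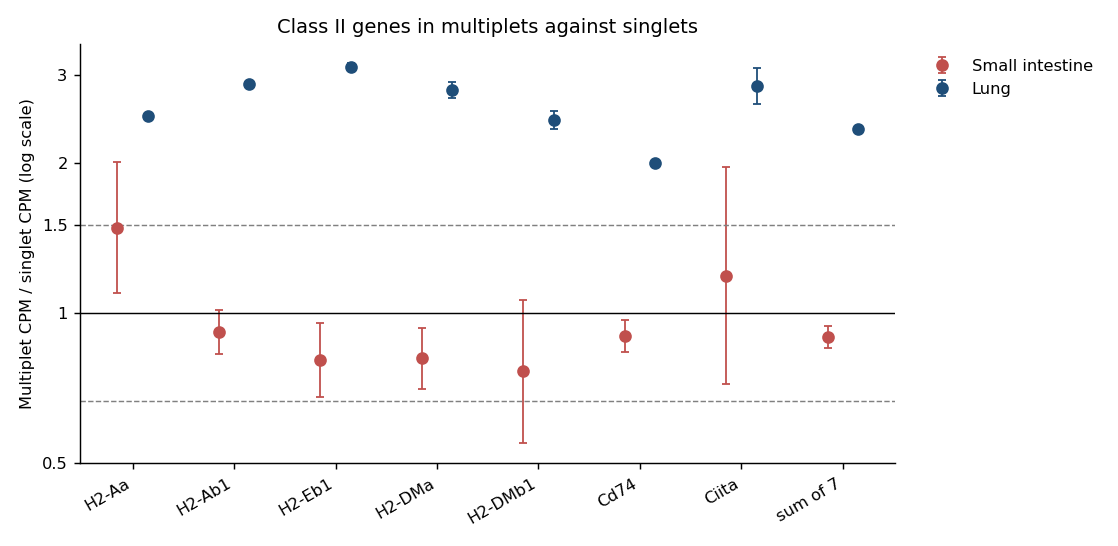
Ratio of multiplet to singlet CPM for each class II gene and their sum (log scale), with bars the 95% interval from the split of UMIs; the solid line is 1 and the dashed lines are 1.5-fold either way. All lung ratios lie at 2.00 or above, and the intestinal ones, H2-Aa at 1.48 and Ciita at 1.19 apart, lie under 1.

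The genes around the members moved unequally in lung multiplets. The other class II genes were 4 of 4 higher (H2-Oa at 2.45, H2-DMb2 2.39, H2-Ob 2.04 and H2-Eb2 1.63). Of the peptide supply genes 4 of 8 were higher, with March1 (the ligase that removes class II from the surface) at 3.07 and Ctss at 3.05, and 1 lower, Ctsl at 0.594. Of the costimulation genes 3 of 5 were higher, with Cd86 at 4.45, Cd80 at 3.69 and Cd274 at 3.04, and Cd40 was lower at 0.470. None of the 7 regulators was past the limit, and of the interferon gamma route 0 of 7 were higher and Ifng was lower at 0.542. The class I genes were 4 of 10 higher, with Psmb9, an immunoproteasome subunit, at 2.12.

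Marker lists of the presenting cells stood beside these as follows. The 6 macrophage markers were all higher (5.84-fold in sum, C1qa at 12.5), 6 of 7 dendritic markers were (2.88, Xcr1 at 7.70), all 4 neutrophil markers were (10.1), none of the 5 B cell markers was (1.14), and the 4 type II pneumocyte markers were within the limit at 0.713. At 1500 UMIs per barcode, at least 5 class II UMIs were found in 20.6% of lung singlets (19.6 to 21.6%) and 36.2% of multiplets (34.8 to 37.6%), and any class II UMI in 32.8% and 59.9%. In the intestine the 5-UMI shares were 0.189% and 0.245%. Lung multiplets with at least 2 T cell marker UMIs reached 5 class II UMIs in 40.3% of 216 barcodes, against 1.58% of 316 such singlets.

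Each multiplet was then described as a mixture of the singlet class profiles, fitted without class II genes, and its class II UMIs were compared with the sum that the weights predict. In the intestine 3033 UMIs were observed and 3151 predicted, a ratio of 0.963 (0.929 to 0.998). Singlets fitted in the same way with profiles from the other singlets gave 0.864 (0.835 to 0.895). None of the 4 members with at least 200 UMIs was past 1.5-fold, where 0.223% of 9408 genes were above and 0.425% below, and they lay between 0.861 for H2-DMa and 0.980 for Cd74. H2-Aa, under that minimum with 116 UMIs, stood at 1.69 (1.39 to 2.02). By class the predicted class II came from Transit amplifying (31.1%), Stem (21.2%), early progenitor (18.6%) and Goblet (14.7%) weights.

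In the lung 483136 class II UMIs were observed and 370251 predicted, a ratio of 1.30 (1.30 to 1.31) beside 1.03 in singlets and a median of 0.988 over all genes counted. No member was past 1.5-fold above, where 2.05% of 12115 genes were and 0.85% were below, and the 7 ratios lay between 1.23 for H2-DMa and 1.41 for H2-Eb1. Macrophage weights supplied 61.5% of the predicted class II, type II pneumocytes 22.5%, alveolar macrophages 8.37% and B cells 5.73%. In total weight the Macrophage class went from 4.63% of singlet UMIs to 19.1% of multiplet UMIs, and type II pneumocytes from 28.6% to 20.2%. Beside the class II ratio, the 6 dendritic markers outside the fit stood at 1.14 times their prediction, 2 macrophage markers at 1.09 and 4 monocyte markers at 0.716. The 8 immune markers stood at 1.01 and 3 of the other class II genes at 1.28. Marker lists of other cells also missed their prediction: 1 club marker at 1.81, 2 endothelial at 1.47, 1 tuft at 1.28, 1 type I pneumocyte at 0.963 and 4 fibroblast at 0.684. The part in the class II ratio of which cells make up the Macrophage class was not tested.

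Class II levels differed with the leading class of a multiplet, the one with the largest weight. Lung multiplets led by type II pneumocytes held 5994 CPM (912 multiplets), close to the singlets of that class at 0.963-fold (0.954 to 0.972), and were observed at 0.993 of their prediction. Those led by Macrophage held 21649 CPM (882 multiplets, 1.20-fold) and those led by alveolar macrophages 5069 CPM (808 multiplets, 1.94-fold), at 1.41 and 1.38 times their prediction. Multiplets led by T cells held 8770 CPM against 136 in T-cell singlets, but 10 of the 127 held 71.1% of those UMIs and the others stood at 3143 CPM. Led by Fibroblast-1 the level was 690 against 65.4 CPM, with 73.6% of the UMIs in 10 of 1015 multiplets and 186 CPM in the rest. Led by Fibroblast-2 it was 1049 against 106 CPM, with 88.2% of the UMIs in 10 of 154 multiplets and 137 CPM in the rest.

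Called classes (weight of at least 0.15) gave the levels by partner. Lung multiplets called only as T cell held 194 CPM (71 multiplets, with 76% of the UMIs in 10 of them and 55.9 CPM in the rest). Called only as Fibroblast-1 they held 105 CPM (800), only as Fibroblast-2 96.6 (65), only as Endothelial 714 (355) and only as type II pneumocyte 5994 (831). Against their prediction T cell alone stood at 0.342, Fibroblast-1 at 0.602, Fibroblast-2 at 0.381, Endothelial at 0.688 and type II pneumocyte at 0.970. The 611 called only as Alveolar Macrophage held 2146 CPM, at 0.765 of their prediction. That was under the 2607 CPM of singlets of the class, unlike the multiplets led by that class. Those called Macrophage alone held 20684 CPM (581, 1.20 times the prediction), with at least 5 thinned class II UMIs in 59.0% of them. Macrophage with T cell held 25597 CPM (98 multiplets, 73.5% with 5 UMIs, 2.21 times the prediction), Macrophage with alveolar macrophage 20487 (146, 1.89 times) and B cell with Macrophage 26683 (58, 1.43 times). Without its 10 highest multiplets the last stood at 17019 CPM, and Macrophage alone without its 10 stood at 19520. These levels are not comparable, since 10 of 58 multiplets were left out in the first and 10 of 581 in the second. Per multiplet the median was 170 class II UMIs per 10000 in B cell with Macrophage and 65.6 in Macrophage alone. At least 5 thinned class II UMIs were in 96.6% and 59.0% of them. Multiplets called only as T cell had at least 5 class II UMIs in 1.41%, while T cells called together with Macrophage had them in most barcodes.

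Among intestinal multiplets those led by late-2 progenitors, Paneth and enteroendocrine cells held more class II RNA than singlets of the class. The 240 led by late-2 held 137 CPM (123 to 152), against 35.5 in late-2 singlets, a ratio of 3.86 (2.93 to 5.17), and 3.58 times their prediction. Of these 240, 111 had a class II UMI, 10 held 43.5% of the UMIs and 1 of those 10 had an immune marker UMI; the other 230 stood at 81.1 CPM. In the 133 called late-2 alone, where 10 held 54.2% of the class II UMIs, Cd74 stood at 38.2 CPM, H2-DMa at 25.9, H2-Ab1 at 19.8 and H2-Aa at 2.05, where late-2 singlets had 14.4, 13.8, 1.80 and 0.601. Multiplets called late-1, late-2 and Enterocyte together held 281 CPM (44 multiplets, 84.6% of the UMIs in 10 of them, 55.7 CPM in the rest). Led by Paneth cells the level was 21.3 CPM, 7.04-fold (3.31 to 17.9) that of Paneth singlets but 1.20 times the prediction, with 59.7% of the UMIs in 10 of 230 multiplets and 9.01 CPM in the rest. Led by enteroendocrine cells it was 71.4 CPM (2.92-fold, 1.84 times the prediction), on 29 UMIs in 7 of 49 multiplets. Of those 29 UMIs, 21 were in 1 multiplet, so this value rests mainly on a single barcode. Multiplets led by Stem cells held 158 CPM (0.743-fold of Stem singlets), by Transit amplifying 60.1 (0.686), by early progenitors 52.2 (0.914, or 34 CPM without the 10 highest), by Goblet 54.6 (1.12) and by Enterocyte 36.5 (0.915, or 21.7 CPM without the 10 highest).

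**Figure D5:**
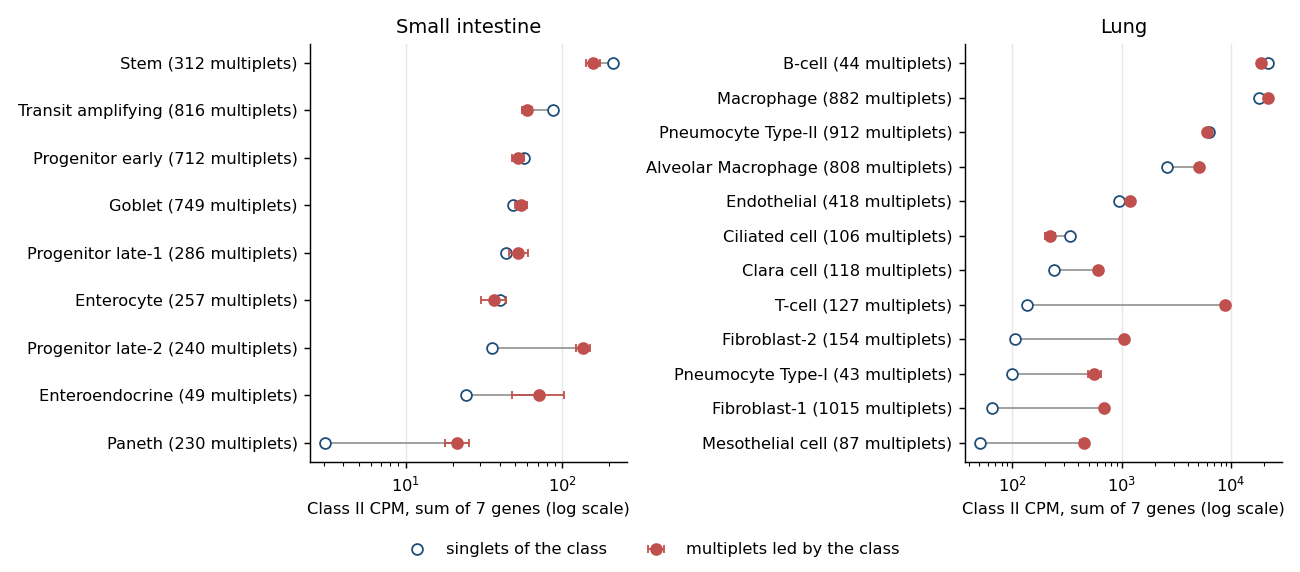
Class II CPM (log scale) in multiplets by their leading class (filled, with the 95% Poisson interval) and in singlets of that class (open); groups under 20 class II UMIs are left out. In the lung the multiplets led by T cells and fibroblasts lie far above the singlets of the class. In these groups 10 multiplets held 71.1% (T cell), 73.6% (Fibroblast-1) and 88.2% (Fibroblast-2) of the class II UMIs. Those led by type II pneumocytes lie at 5994 against 6223. In the intestine late-2 stands at 137 against 35.5 and Paneth at 21.3 against 3.03.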

How the data were processed

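The values are the authors' deposited raw UMI counts per gene and barcode, made with Cell Ranger 4.0.0 per the submitters' processing notes, and the cell classes are the authors' deposited annotation. The tables hold 5279 and 3671 annotated intestinal and 6084 and 4729 lung barcodes (singlets and multiplets), and no filter was added. The authors' annotation lists 5607 intestinal and 8630 lung multiplets, so the multiplet values cover 3671 and 4729 of these, and the rest were not analysed here. Libraries were named from their labels, and each group has 1 library with no replicate. The members and gene lists were chosen with earlier results of these data known.

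UMIs were summed per class or library and given as CPM. Exact 95% intervals (Poisson for sums, Clopper-Pearson for shares, conditional binomial for ratios) cover counting error only, and a count of 0 was bounded by 3 UMIs. A difference was called past 1.5-fold, among genes with at least 50 UMIs in both classes together or in either library. Shares were computed after thinning each barcode to 1500 UMIs, leaving out shallower barcodes. Scrublet (scanpy 1.11.5) marked 1.61% of intestinal and 2.07% of lung singlets, which were kept and left out as an alternative. Multiplets were fitted as Poisson mixtures of the singlet class profiles on 40 markers per class without class II genes (300 iterations, a class called at a weight of 0.15, genes counted from 200 UMIs). Genes alike in pattern were the 10 with the highest Pearson r of log2 of CPM plus 10. The members, every other gene with a name starting in H2-, unnamed and mitochondrial genes and receptor segments were left out. Ratios, thinning and the mixture fit were tested on simulated data. Alternatives were equal weight per barcode, TMM scaling (edgeR 4.0.16), other minimums, and leaving out doublets or the 10 highest barcodes. Python 3.11.15 was used.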

Additional observations from a re-analysis of the deposited data

Results flagged for a closer look

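The multiplet to singlet ratio of summed class II RNA lay on opposite sides of 1 in the 2 tissues. For the sum of the 7 genes the intestinal ratio was 0.896 (0.852 to 0.942) and the lung ratio 2.34. For H2-Eb1 it was 0.806 and 3.12, for H2-DMa 0.812 and 2.80, and for the invariant chain Cd74 0.900 and 2.00, although with every barcode weighted the same the intestinal Cd74 ratio was 1.01 and that of the sum 0.989. The other members did not share this: in the intestine H2-Aa stood above 1 at 1.48 (1.10 to 2.01), and the intervals of H2-Ab1 (0.829 to 1.01), H2-DMb1 (0.549 to 1.06) and Ciita reached 1. The difference between the tissues was not tested, since each ratio compares a pair of libraries without replicates.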

How the results depend on the processing

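Of 95 recomputed class levels 50 stayed within the counting interval and 45 moved; 21 moved by over 1.5 times, in 12 of 23 classes, 12 of them on leaving out the 10 highest barcodes. Weighting every barcode the same, Stem over Transit amplifying went from 2.42 to 2.20, the intestinal multiplet ratio from 0.896 to 0.989 and the lung one from 2.34 to 2.30. Type II pneumocytes over Endothelial, 6.64, became 7.28 without Scrublet doublets and 13.5 without the 10 highest barcodes. B cells over Macrophage, 1.20, became 1.62 with every barcode weighted the same, 1.24 without doublets, 1.42 without the 10 highest barcodes and 0.976, the other direction, in the lower part of each class by type II pneumocyte markers (an alternative chosen after seeing the data); the cause was not tested. Macrophage over Alveolar Macrophage, 6.90, took the values 6.08, 7.34, 9.61 and 7.32 under the same 4 settings. Shares of barcodes with a class II UMI, without thinning and thinned to 3000 UMIs, were 26.2% and 13.5% in intestinal singlets, 32.4% and 13.3% in intestinal multiplets, 51.5% and 38.4% in lung singlets and 85.5% and 68.8% in lung multiplets. With Spearman correlation 6 of the 10 lung genes alike in pattern were the same.

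The intestinal multiplet ratio was 0.963 with TMM scaling, which put 1 member past 1.5-fold in place of 0, and 0.782 without barcodes holding an immune marker UMI (chosen after seeing the data), where H2-Aa changed direction to 0.787. Cd74 changed direction to 1.01 with every barcode weighted the same. The lung ratio was 2.31 against singlets as deep as the shallowest multiplet, 2.42 with TMM and 2.39 without the 10 highest barcodes. Of 49 recomputed intestinal member ratios 44 stayed within the interval, 3 moved and 2 changed direction; of 42 in the lung 25 stayed and 17 moved, with 0 changing direction. Observed over predicted was 0.881 in the intestine without the 10 highest multiplets. In the lung it was 1.33 with 20 markers per class, 1.26 without doublets and 1.27 without the 10 highest multiplets. Ciita had 31 and 39 intestinal UMIs, too few for a ratio to be called. No paired analysis was possible because each group has 1 library.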
